A study of Mus musculus with 2 samples.

Results

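The genes of chondrocyte maturation and bone were followed in RNA-seq libraries of E12.5 distal forelimbs. They were chosen by name as markers of the skeletal stage: Ihh, Pthlh, Pth1r, Runx2, Runx3, Col10a1, Ibsp, Spp1 and Alpl. Of these 9 genes, 8 have transcripts in the analysed table, 24 of its 64053 transcripts and 8 of its 23157 genes. The other one, Ibsp, the gene of bone sialoprotein, was not analysed here, and the table holds no transcript that is without reads in both libraries. The study compared 1 library of wild-type embryos with 1 library of embryos homozygous for HoxD Inv(TpSB1-Itga6). This inversion of 2.4 Mb on chromosome 2 moves the distant digit enhancers named islands I and II away from Hoxd13. Both libraries were of C57Bl6CBAF1 background, and the design text names 3 pairs of forelimbs as the dissected material. None of the members lies on chromosome 2.

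In the cartilage models of the limb, chondrocytes stop dividing, enlarge and become hypertrophic before bone replaces them. Indian hedgehog, made by cells that are about to become hypertrophic, induces the parathyroid hormone-related peptide (gene Pthlh), which acts through its receptor Pth1r on younger chondrocytes and holds back their maturation. The RUNX transcription factors, with Runx2 in front, drive hypertrophy and the osteoblast fate, and their targets include genes of the hypertrophic and bone matrix. The digit region is among the last parts of the forelimb to start this program.

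The 8 genes did not share a direction between the libraries. The members of the Indian hedgehog and PTHrP loop and Col10a1, the collagen of hypertrophic cartilage, had fewer normalized reads in the inversion library, while Runx2, Runx3, Spp1 and Alpl had more. The values were furthest apart for Runx2, with 1.88-fold more normalized reads in the inversion library, followed by Spp1 with 1.56-fold and Runx3 with 1.38-fold. On the other side Col10a1 was at 0.711 and Ihh at 0.751 of the wild-type value. The intervals that counting error gives lay above 0 for Runx2 and Runx3, 2 of 8 against 16.7% of all genes, and below 0 for Pth1r and Ihh, 2 of 8 against 13.0%, and included 0 for Pthlh, Col10a1, Spp1 and Alpl.

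The wild-type library held 9280660 reads and the inversion library 9466154. There is no replicate of either, so that no difference has a replicate check, and the 95% intervals (exact Poisson for reads, exact Clopper-Pearson for the inversion library's part of both, put on the log2 scale) take in counting error alone and set a pair of libraries side by side, not genotypes. Normalized reads are reads divided by the size factor of their library. Log2 ratios divide the inversion value by the wild-type value after 1 is added to both, which understates the differences of genes with few reads. Genes averaging 10 normalized reads or more were kept, 16756 in number. Their median log2 ratio was -0.02, and from the 5th to the 95th percentile the log2 ratios ran from -0.36 to 0.88. Of these genes, 7810 were higher in the inversion library and 8946 lower. Pairs of values are given with wild type first. Sex-linked transcripts differed between the pools, with 2607 and 13 reads of Xist and 826 and 2820 reads over 4 Y-linked genes, and the reads of 8 muscle genes summed to 948 and 2000. Sex, muscle content and genotype cannot be told apart here, nor, in whole tissue, more cells of a type from more RNA per cell.

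**Figure D1:**
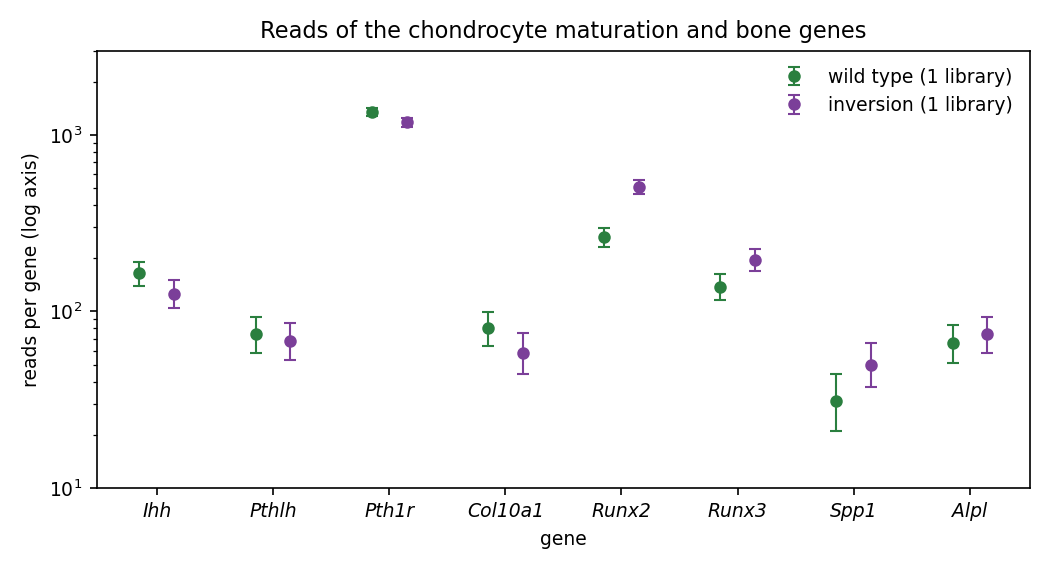
Reads per gene (log axis) of the 8 genes in the wild-type library (green) and the inversion library (purple), 1 library each; bars are exact 95% Poisson intervals. Pth1r lies above 1000 reads in both libraries, and the bars of the libraries are apart for Pth1r, Runx2 and Runx3.

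The sequences below carry the motif that the RUNX factors recognise, searched as AACCACA on either strand (TGTGGTT) in RefSeq promoter windows of GRCm38.p6, from 250 bases before to 50 bases after a gene's start. All 9 members had at least 1 window, and 3 of their 14 windows held the motif, against 5.27% of all 32851 windows. These were windows of Runx2, Runx3 and Spp1, which also had the highest log2 ratios among the members. They were picked for display with these ratios known, and for the members a link between motif and ratio was not tested. The other windows of Runx3 and Spp1 held no match. The motif is in capitals. For Runx3 and Spp1 the lines give the 250 bases before the RefSeq start, at chr4:135120395-135120644 and chr5:104434861-104435110, both on the plus strand. The RefSeq start of Runx2 lies 170 bases downstream of the start that GENCODE gives for its main transcript, so that all its sites fall in that transcript's 5′ untranslated first exon. For Runx2 the lines therefore give only the 30 bases around the sites, at chr17:44814691-44814720 and chr17:44814583-44814612 on the minus strand.
Runx3 upstream: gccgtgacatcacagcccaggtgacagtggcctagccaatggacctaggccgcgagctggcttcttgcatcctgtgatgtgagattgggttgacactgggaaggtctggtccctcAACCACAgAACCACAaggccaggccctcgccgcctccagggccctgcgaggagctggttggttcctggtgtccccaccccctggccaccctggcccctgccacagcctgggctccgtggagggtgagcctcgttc
Spp1 upstream: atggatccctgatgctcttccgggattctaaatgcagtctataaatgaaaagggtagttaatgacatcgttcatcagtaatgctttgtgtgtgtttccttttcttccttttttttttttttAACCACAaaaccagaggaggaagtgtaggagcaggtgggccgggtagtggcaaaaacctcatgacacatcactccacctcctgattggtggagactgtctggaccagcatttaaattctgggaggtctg
Runx2, first site: tgtgaggtcacaAACCACAtgattctgtct
Runx2, paired sites: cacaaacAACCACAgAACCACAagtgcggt

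Counted from the RefSeq start base as 0, the motif began at -81, 22 and 30 in Runx2 (89, 192 and 200 from the GENCODE start), at -135 and -127 in Runx3 and at -129 in Spp1. The Runx2 window was among only 3 of all windows with 3 or more copies. In Runx2 and Runx3 a pair of copies stood with their first bases 8 apart, in the same orientation and separated by a single g. This pair occurred in 5 of the 32851 windows, those of Runx1, Runx2, Runx3, Gm16225 and Olfr24. The third family member with the pair, Runx1, chosen after its values were seen, had 221 and 249 reads (log2 ratio 0.14, 95% interval -0.13 to 0.40). Across the table the median log2 ratio was 0.00283 for the 445 filtered genes with the motif in a window and -0.01 for the 9910 without it. A match is a run of letters and no proof of binding, and the windows of Ihh, Pthlh, Pth1r, Col10a1, Ibsp and Alpl without a match cover a short stretch only.

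Runx2 (chromosome 17, 44495987 to 44814797, minus strand, GRCm38) encodes a RUNX factor that drives chondrocyte hypertrophy and the osteoblast fate. It had 263 reads in the wild-type library (95% interval 232 to 297) and 508 in the inversion library (465 to 554). In normalized reads this was 266 against 502, which gives a log2 ratio of 0.91 with bounds of 0.70 and 1.13. The intervals of the reads do not overlap. In wild type 58.6% of the genes with reads had a lower normalized value than Runx2, and in the inversion library 71.5%.

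Runx2 is transcribed from a distal and a proximal promoter, which lie 78.4 kb apart by the annotated starts of the listed transcripts. The motif search had no window at the proximal start. Of the 2 transcripts from the distal start, ENSMUST00000113571 carried most reads, with 216 for wild type against 405 for the inversion. The other distal transcript, ENSMUST00000159943, had 0 and 4 reads. From the proximal start, ENSMUST00000162878 had 43 and 91 reads and ENSMUST00000162816, annotated as subject to nonsense-mediated decay, 4 and 8. The distal class was thus 0.88 higher on the log2 scale (95% interval 0.64 to 1.13) and the proximal class 1.02 higher (0.52 to 1.57). Both classes were higher in the inversion library. The distal share of Runx2 reads was 82.1% (95% exact interval 77.0 to 86.6) in wild type and 80.5% (76.8 to 83.9) in the inversion library. A shift in this share was not detectable at this depth. How reads that fit transcripts of both classes were assigned is not known. The class values and their intervals may therefore not measure the use of each start. An antisense gene, Runx2os1 (44735845 to 44737612), shares 519 of the 8837 exon bases of Runx2 near the proximal start. ENSMUST00000162878 starts at 44735710 and lies outside Runx2os1. Of the listed proximal transcripts only ENSMUST00000162816 can thus overlap it. Without knowledge of how the counting used the strand, reads of Runx2os1 cannot be separated where the genes overlap. Supt3, also of the opposite strand (44777152 to 45119290), spans the distal start and shares 0 exon bases. Reads from unspliced Supt3 RNA cannot be told from Runx2 if the counting ignored the strand.

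Runx3 (chromosome 4, 135120652 to 135177990, plus strand) acts beside Runx2 in chondrocyte maturation and is also known from sensory neurons and blood cells. Its reads numbered 138 in wild type (95% interval 116 to 163) against 196 for the inversion (170 to 225), and the log2 ratio came to 0.47 (0.15 to 0.79). The distal transcript ENSMUST00000056977, whose start lies 31.8 kb upstream of the proximal one, had 130 and 182 reads, and the proximal ENSMUST00000119564 had 8 and 14. The distal share was 94.2% (95% interval 88.9 to 97.5) in wild type and 92.9% (88.3 to 96.0) in the inversion library. As for Runx2, it depends on how shared reads were assigned, which is not known. Of the sensory neuron markers, Isl1 had 2 and 4 reads and Pou4f1 0 and 4, both chosen after their values were seen. The partner of all RUNX factors, Cbfb, had 1248 and 1211 reads (log2 ratio -0.08, 95% interval -0.19 to 0.04). A difference in this shared subunit was thus not detectable at this depth.

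**Figure D2:**
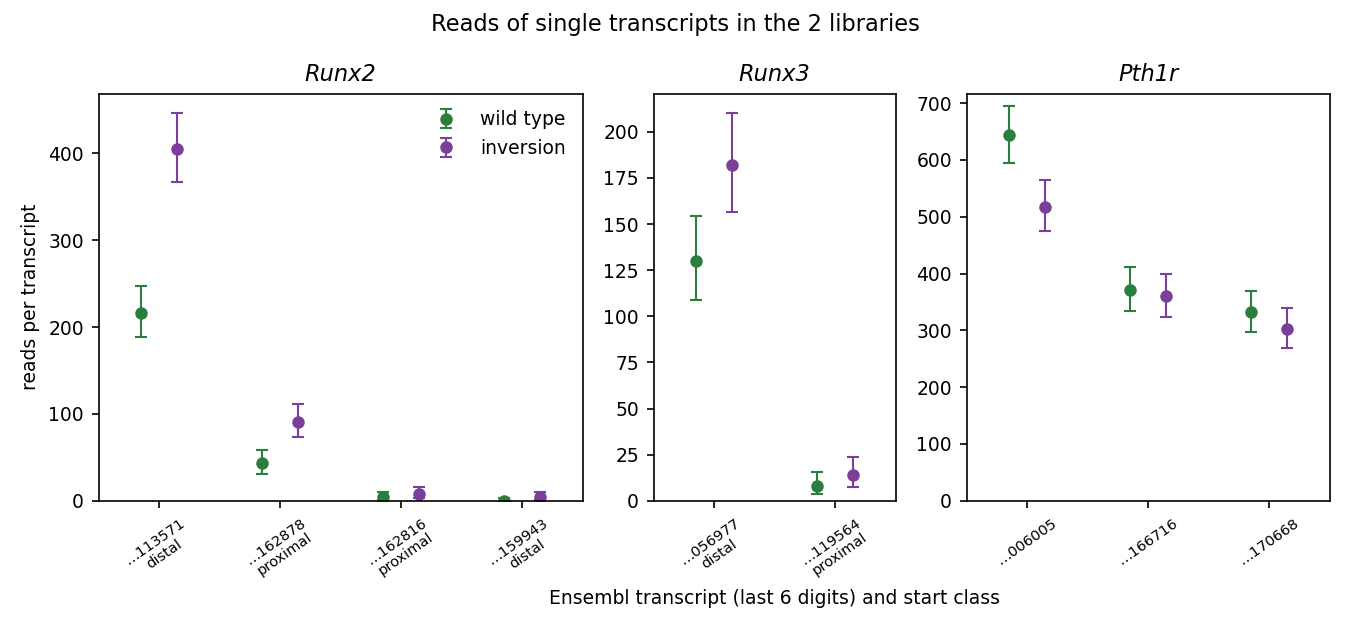
Reads per transcript of Runx2, Runx3 and Pth1r in the wild-type (green) and inversion (purple) library, 1 library each; bars are exact 95% Poisson intervals and names are the last 6 digits of the Ensembl identifiers, with the start class for the RUNX genes. The most abundant transcript of Runx2 went from 216 to 405 reads and that of Pth1r from 644 to 518.

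Ihh (chromosome 1, 74945315 to 74951672, minus strand), the hedgehog ligand of prehypertrophic chondrocytes, gave 164 reads for wild type (95% interval 140 to 191) against 126 for the inversion (105 to 150). Its log2 ratio was -0.41 (-0.76 to -0.07). Both listed transcripts, ENSMUST00000164097 and ENSMUST00000006713, carried the same 82 and 63 reads. If these are the same reads listed under both names, the interval widens to -0.91 to 0.08 and includes 0.

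Pthlh (chromosome 6, 147252101 to 147264183, minus strand), the gene of the peptide that Indian hedgehog induces, was read 74 times in wild type (95% interval 58.1 to 92.9) and 68 times in the inversion (52.8 to 86.2). With a log2 ratio of -0.16 and an interval of -0.65 to 0.34, a difference in Pthlh was not detectable at this depth. The limb ectoderm is among the places where the peptide is made, and all 11 ectoderm genes examined had lower values in the inversion library, with a median log2 ratio of -0.22 and summed normalized reads of 6104 and 5239 (Krt5 at -0.22, Trp63 at -0.11 and Krt14 at -0.24). The part of the ectoderm in the Pthlh value was not tested.

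Pth1r (chromosome 9, 110722085 to 110747145, minus strand), the receptor of PTHrP, was the most abundant member. Wild type gave 1347 reads (95% interval 1276 to 1421) and the inversion 1181 (1115 to 1250), so that the log2 ratio was -0.23 (-0.34 to -0.11). Its 3 transcripts were lower in the inversion library to different degrees. ENSMUST00000006005 went from 644 to 518 reads (log2 ratio -0.35, 95% interval -0.52 to -0.18). ENSMUST00000170668 had 332 and 303 reads and ENSMUST00000166716 had 371 and 360, with intervals that include 0. The log2 ratio of Pth1r lies between the 5th and 95th percentiles of all genes, and its depth gives the narrowest interval among the members.

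Col10a1 (chromosome 10, 34389981 to 34397085, plus strand) encodes type X collagen, the defining matrix protein of hypertrophic chondrocytes. Its single transcript had 80 reads (95% interval 63.4 to 99.6) in wild type against 58 (44.0 to 75.0) in the inversion. The log2 ratio was -0.49, and the bounds of -1.01 and 0.01 just take in 0. Col10a1 lies inside Nt5dc1, a gene of the opposite strand that shares 18 of its 3130 exon bases and had 206 and 199 reads. Reads from unspliced Nt5dc1 RNA cannot be told from Col10a1 if the counting ignored the strand.

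Spp1 (chromosome 5, 104435118 to 104441050, plus strand) encodes osteopontin, a phosphoprotein of bone matrix that macrophages and osteoclasts make as well. Its reads were the fewest of the members, 31 for wild type (95% interval 21.1 to 44.0) against 50 for the inversion (37.1 to 65.9), spread over 6 transcripts of at most 11 reads each. Its log2 ratio of 0.64 had bounds of -0.02 and 1.35, on either side of 0. Some of these transcripts carried equal reads. If these are the same reads listed under several names, Spp1 had 17 and 29 reads and the bounds widen to -0.18 and 1.69. Gm42793, a gene of the same strand, shares 309 of the 1648 exon bases of Spp1, where reads of both cannot be told apart. The 11 macrophage genes examined summed to 1784 and 1783 reads, with 9 lower and 2 higher and a median log2 ratio of -0.15 (Csf1r at -0.12, Mrc1 at 0.27 and Cx3cr1 at -0.03). Their part in the Spp1 value was not tested.

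Alpl (chromosome 4, 137741733 to 137796384, minus strand), the tissue-nonspecific alkaline phosphatase that cartilage and bone need to mineralize, gave 66 reads (95% interval 51.0 to 84.0) in wild type against 74 (58.1 to 92.9) in the inversion. Its log2 ratio was 0.13 (-0.37 to 0.63). Of its 5 transcripts, ENSMUST00000030551 held 65 and 70 of these reads, and each of the others had at most 1 read in either library.

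**Figure D3:**
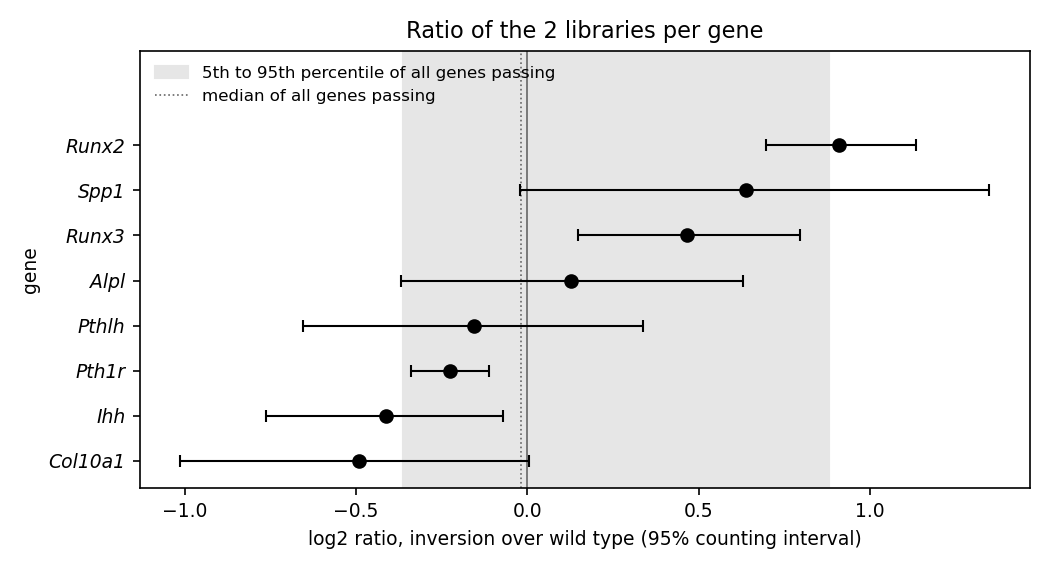
Log2 ratios (inversion divided by wild type, normalized reads) of the 8 genes, shown as points from 1 library per genotype with 95% Clopper-Pearson counting intervals; the grey band spans the 5th to 95th percentile of all 16756 genes that passed the filter and the dotted line is their median. Runx2, at 0.91, lies just above the band, and Ihh and Col10a1, at -0.41 and -0.49, lie just below it.

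Counted over the members, 4 were higher and 4 lower, and the median log2 ratio of -0.01 was close to the median of all genes. None of the 8 was at least 2-fold higher or at least 2-fold lower, where 3.99% and 0.483% of all genes were. Neither these shares nor those of intervals off 0 set the 8 members apart from the rest of the table. At 1.5-fold, Runx2 and Spp1 were higher, 2 of 8 against 9.41% of all genes, and no member was lower, against 2.04%.

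Divided by transcript length and library total, levels can be set side by side between genes. In wild type the order, in RPKM computed here, was Pth1r (63.9), Ihh (7.16), Runx2 (5.32), Pthlh (4.97), Runx3 (3.96), Alpl (2.90), Col10a1 (2.75) and Spp1 (2.50). Pth1r stood apart from Ihh and Ihh from Runx2, while from Runx2 downwards each neighbour in this order overlapped with the next in its counting interval. In the inversion library the same level was 54.9 for Pth1r, 10.1 for Runx2, 5.52 for Runx3, 5.39 for Ihh, 4.48 for Pthlh, 3.95 for Spp1, 3.19 for Alpl and 1.96 for Col10a1. Here Pth1r and Runx2 stood apart, and the neighbours from Runx3 to Col10a1 overlapped. The place of Ihh in wild type rests on its pair of transcripts with equal reads. With such transcripts counted once, an alternative chosen after the data were seen, Ihh was at 3.58 in wild type and 2.70 in the inversion library, below Runx2 in both, and overlapped with its neighbours Runx3 and Alpl in wild type. Spp1, which also has transcripts with equal reads, was then at 1.37 and 2.29. Pth1r stayed first, with Runx2 next, in both libraries under this counting, though in wild type the interval of Runx2 overlapped with that of Pthlh.

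The receptor and target genes of the hedgehog ligand had no common direction. Of 11 genes of the hedgehog and PTHrP loop that passed the filter, 5 were higher and 6 lower, with a median log2 ratio of -0.07. Ptch1, the hedgehog receptor that is also a target, had 1642 and 1495 reads (log2 ratio -0.17, 95% interval -0.27 to -0.07) and Gli1, a target transcription factor, 640 and 717 reads (0.13, -0.03 to 0.28). Hhip, a hedgehog-binding inhibitor induced by the pathway, was lower at 330 and 180 reads (-0.91, -1.18 to -0.64). The transducer Smo was at -0.14, and the transcription factors Gli2 and Gli3 at -0.09 and -0.27. At E12.5 Sonic hedgehog of the posterior limb uses the same genes, and the parts of both ligands in these values cannot be told apart.

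Of the genes for osteoblast determination, 3 of 10 were higher and 7 lower (median log2 ratio -0.02). Sp7, the factor downstream of Runx2 in osteoblasts, was the only one past 2-fold, from 76 reads in wild type and 187 with the inversion (log2 ratio 1.25, 95% interval 0.87 to 1.67). The general factors of this list, Zfp521 (-0.01), Atf4 (0.05) and Msx2 (-0.06), had log2 ratios near 0. Among 12 genes of bone matrix and mineralization that passed the filter, 6 were higher and 6 lower, with a median log2 ratio of 0.02. Col1a1 was at 0.70 (0.64 to 0.76) and Col1a2 at 0.23 (0.20 to 0.27), while Sparc was at -0.05. Phex, an X-linked endopeptidase gene of bone cells chosen after its values were seen, was the only one past 2-fold, with 47 and 101 reads. Bglap, the gene of osteocalcin of mature osteoblasts, had 2 and 1 reads. Other genes known from bone cells, chosen after their values were seen, were Sost, an inhibitor of Wnt signals, with 93 and 53 reads, Ifitm5 with 10 and 19 and Dmp1 with 2 and 9. Which cells gave these reads was not tested.

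Among the genes of hypertrophy other than the members, 7 of 10 were higher and 3 lower, with a median log2 ratio of 0.16. The abundant ones were Mef2d (0.20) and Sik3 (0.19), beside Cbfb. Panx3, a channel gene of prehypertrophic cartilage and osteoblasts that was chosen after its values were seen, went from 2 to 29 reads, a log2 ratio of 3.29 with an interval of 1.84 to 6.93. Earlier cartilage genes were mostly higher. Of 16 genes of early cartilage matrix, 14 were higher and 2 lower, with a median log2 ratio of 0.31. The interval lay above 0 for 9, against 16.7% of all genes, and below 0 for 1, against 13.0%. Col2a1, the main collagen of cartilage, was at 0.37 (0.32 to 0.41), Col9a1 at 0.19 and Col9a2 at 0.04. Comp and Matn1, cartilage matrix genes chosen after their values were seen, were the 2 past 2-fold, with 23 and 125 reads for Comp and 100 and 331 for Matn1. The chondrogenic transcription factors were even, with 5 higher and 5 lower (median 0.03), with Trps1 at -0.01, Sox9, the master factor of cartilage, at -0.09 and Sox6 at -0.24. Nkx3-2, a repressor that keeps chondrocytes immature and was chosen after its values were seen, was the only one of them past 2-fold, with 79 and 180 reads.

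The joint list was even as well, with 4 of 8 genes higher and 4 lower (median log2 ratio -0.03). Gdf5, the growth factor of the joint interzone, was at -0.36 (95% interval -0.52 to -0.21), and Erg and Wnt4 were at -0.10 and -0.09. Of 5 osteoclast genes, 3 were higher and 2 lower (median 0.01). The osteoclast enzymes Ctsk and Acp5 were at 0.15 and -0.18, with intervals that include 0, and Mmp9, a gelatinase of osteoclasts and other cells, was at 1.61 (1.02 to 2.32) from 28 and 90 reads.

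**Figure D4:**
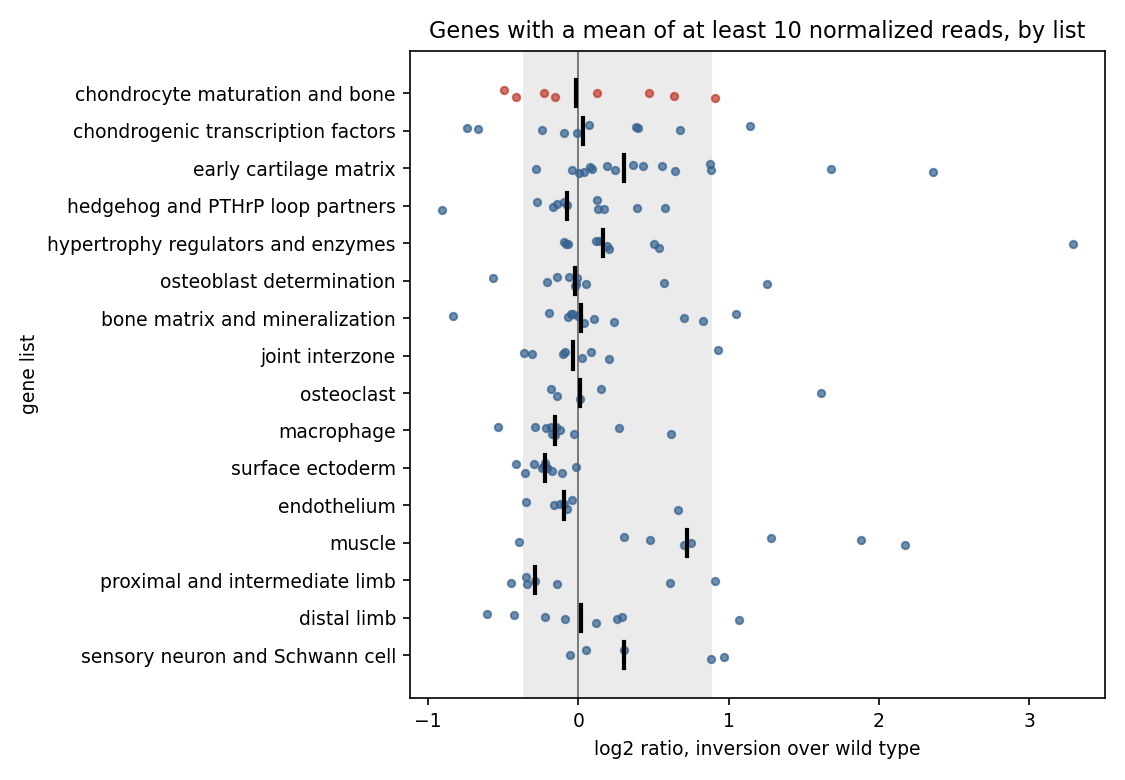
Log2 ratio, inversion over wild type, of each filtered gene (points, 1 library per genotype), by gene list; black bars are list medians, red points are the 8 members and the grey band spans the 5th to 95th percentile of all genes. The medians lie at -0.01 for the members, at 0.31 for early cartilage matrix and at 0.73 for muscle.

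The skeleton of the forearm matures ahead of that of the digits, so genes of position along the limb are given beside the members. Of the 7 genes of proximal and intermediate limb, 2 were higher, Shox2 at 0.91 (95% interval 0.73 to 1.09) and Hoxa11 at 0.61 (0.44 to 0.79), and 5 were lower, among them Hoxd11 at -0.35. The rest of the lower ones, named after their values were seen, were Meis2 at -0.34 (-0.53 to -0.15), Irx3 at -0.45 (-0.86 to -0.04), Irx5 at -0.29 and Meis1 at -0.14. The intervals of Irx5 and Meis1 include 0. The median of this list was -0.29, and its normalized reads summed to 3059 and 3171. Of the 8 distal genes 4 were higher and 4 lower (median 0.02), with Hoxd13 at -0.61 and Lhx9 and Sall1 at -0.09 and 0.26. The inversion moves islands I and II away from Hoxd13, and by RT-qPCR the paper found less Hoxd10 to Hoxd13 RNA with it. Hoxd11 and Hoxd13 are thus not markers of position alone. The markers of other cell types were at -0.10 for endothelium (6 of 7 genes lower, with Cdh5, Kdr and Pecam1 at -0.08, -0.04 and -0.16), at 0.31 for sensory neurons and Schwann cells (4 of 5 higher, with Erbb3 and Sox10 at -0.05 and 0.05) and at 0.73 for muscle (7 of 8 higher, with Myh3, Actc1 and Myog at 1.88, 0.70 and 0.75), given as median log2 ratios. The part of the cut, of stage and of these tissues in the values of Runx2, Runx3 and the other members was not tested.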

How the data were processed

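Poly(A)-selected, stranded libraries of E12.5 distal forelimbs were sequenced, and reads mapped by the authors to NCBIM37 (Bowtie2 per the submitters' processing notes) and assigned to transcripts with the HTSstation pipeline. The deposited signal columns hold reads per transcript divided by a size factor of each library, with 0.5 written where there were no reads. The authors' paper names RPKM, but these values do not scale with length. The deposited columns of fold change (a ratio), log2 fold change and p-value are the authors' comparison and were not used. How reads shared by transcripts were assigned, and whether strand was used, is not given in the sources used here.

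Of the values above 0.5, 100% were whole multiples of 1 read (within 0.006) and were turned into reads. Gene values are sums over transcripts with the same symbol and chromosome. The depth was 9280660 (wild type) and 9466154 (inversion) reads. Log2 ratios had a pseudocount of 1 and genes needed a mean of at least 10 normalized reads. With 1 library per group no test was made. Starts, lengths and positions came from GENCODE M21 on GRCm38, matched by identifier for 88.1% of transcripts, and no coordinate was converted from NCBIM37. Length per gene was the mean of its matched transcripts, weighted by reads. The members and the 15 other lists were chosen with earlier results of these data known. Named were all members, the 3 genes of each list with the highest mean, and Sox9, Sp7, Bglap, Mmp13, Gdf5, Acp5, Ctsk, Gli1, Ptch1, Hhip, Cbfb and sex-linked genes. Other names are marked as chosen after their values were seen, or given for exons, motifs or positions shared with a member. Mmp13 was not analysed here. Of the genes of this rule, 1 is not reported here. The steps were tested on simulated libraries. Computation used scipy 1.17.1, pandas 2.3.3 and numpy 2.4.6 under Python 3.11.15, and plots used matplotlib 3.10.9.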

Additional observations from a re-analysis of the deposited data

How the results depend on the processing

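No paired analysis was possible because each genotype was sequenced as a single library. The alternatives were thresholds of 1.5-fold and 4-fold, protein-coding transcripts only, each gene's transcript of highest mean, a minimum mean of 100 or none, pseudocounts of 0.1 and 5, and scaling by upper quartile or total reads. Counting transcripts of a gene with equal reads once was added after seeing the data. No member changed direction under those that can change a gene's value. The filters cannot change the value of a single gene. Of the 56 values of single members under the other settings, 55 stayed within the counting interval of the reported value and 1, Pth1r at -0.35 with the transcript of highest mean, left it. Runx2 ran from 0.87 to 0.97 on the log2 scale, Runx3 from 0.45 to 0.52, Spp1 from 0.55 to 0.70, Ihh from -0.42 to -0.36 and Col10a1 from -0.50 to -0.44. The median of the members ran from -0.16 to 0.12 and so had no stable sign. Both ends are medians of fewer genes, 7 with the transcript of highest mean and 4 with a minimum mean of 100. Where all 8 were counted, the median ran from -0.03 to 0.04.

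The number of members with an interval below 0 was 1 in place of 2 with the transcript of highest mean and also 1 with protein-coding transcripts only, since Ihh then keeps 82 and 63 reads. With upper quartile scaling 3 members in place of 2 had an interval above 0, Spp1 being added. At 1.5-fold 2 members were higher. Of all genes, 1992 lay past 2-fold higher and 1089 past 2-fold lower without the filter, and 139 and 12 with a minimum mean of 100. With protein-coding transcripts only 412 were higher. At 1.5-fold 1577 were higher and 341 lower, and at 4-fold 113 and 13. Of 120 list medians under an alternative, 8 changed sign, those of bone matrix (without the filter, with the transcript of highest mean and with protein-coding transcripts only), osteoblast determination and joint (upper quartile scaling), the hedgehog loop (without the filter), distal limb (transcript of highest mean) and the neural list (minimum mean of 100). The median of early cartilage matrix kept its sign, but was 0.18 with protein-coding transcripts only and 0.22 with a minimum mean of 100. Depth limits Spp1, Alpl, Pthlh and Col10a1 most, with 31 to 80 reads per library.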
